A study of Mus musculus with 220 samples.

Results

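Homeostatic high endothelial cells (HEC) were split by the level of Cxcl9, the gene of an interferon-induced chemokine, into 24 cells with Cxcl9 and 55 cells without it, together 79 of the 220 single cells of the study. A cell was placed in the set with Cxcl9 at an FPKM of 1 or more and in the set without it below 1, so the sets were chosen by the measured Cxcl9 level. FPKM counts sequenced fragments relative to transcript length and to all mapped fragments of the cell. Every cell came from a lymph node of a C57BL/6 mouse and had its own RNA-seq library, made after flow sorting and capture on the Fluidigm C1 system. The 24 cells with Cxcl9 and the 55 cells without it were from untreated mice. The remaining groups were 65 inflamed HEC, taken on day 3 after 4% oxazolone, a contact sensitiser, was put on the skin; 44 dedifferentiated HEC, taken on day 7 after a single intraperitoneal injection of LTBR-Ig, a decoy form of the lymphotoxin beta receptor; and 32 blood endothelial cells (BEC) of untreated mice. The labels name no animal, so the cells of each group count as 1 sample and cells cannot stand as replicates of a condition. Values are therefore given with their SD over cells and no p-value is given.

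High endothelial cells line the venules through which naive lymphocytes leave the blood and enter lymph nodes. Cxcl9, Cxcl10 and Cxcl11 encode the ligands of the chemokine receptor CXCR3, and Cxcl9 in particular is a classical target of interferon-gamma. Interferon-gamma acts through its receptor and the kinases JAK1 and JAK2 on promoters with gamma-activated sites; type I interferons act mainly through a complex that holds STAT2 and IRF9 and binds interferon-stimulated response elements. The guanylate-binding proteins (GBPs) and immunity-related GTPases (IRGs), which attack intracellular pathogens, are strongly induced by interferon-gamma, whereas genes such as those of the OAS and IFIT families are typical of the type I response. The question put to the data was whether cells at rest that held Cxcl9 also held more of these other transcripts.

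The start regions of Cxcl10, Irgm2, Oas1a and Icam1 are shown because these genes had differences of 1 or more and stand for the ligands, the GTPases, the type I response and the adhesion molecules. Each line holds the 250 bases before the gene's start, read 5′ to 3′ on the gene's strand, from RefSeq on GRCm38.p6. Capitals mark every match to the gamma-activated site, searched as TTC, any 3 bases and GAA, or to the interferon-stimulated response element, searched as GAAA, any 2 bases and GAAA, on both strands.
Cxcl10: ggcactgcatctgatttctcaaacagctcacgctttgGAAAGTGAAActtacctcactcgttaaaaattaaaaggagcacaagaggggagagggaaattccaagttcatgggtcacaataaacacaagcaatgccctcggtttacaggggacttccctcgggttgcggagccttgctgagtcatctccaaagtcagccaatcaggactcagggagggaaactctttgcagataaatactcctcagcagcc
Irgm2: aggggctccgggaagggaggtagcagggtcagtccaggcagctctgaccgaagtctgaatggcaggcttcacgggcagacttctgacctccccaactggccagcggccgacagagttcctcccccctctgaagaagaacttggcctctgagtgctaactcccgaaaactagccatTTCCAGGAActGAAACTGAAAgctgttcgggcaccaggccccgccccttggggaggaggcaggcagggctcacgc
Oas1a: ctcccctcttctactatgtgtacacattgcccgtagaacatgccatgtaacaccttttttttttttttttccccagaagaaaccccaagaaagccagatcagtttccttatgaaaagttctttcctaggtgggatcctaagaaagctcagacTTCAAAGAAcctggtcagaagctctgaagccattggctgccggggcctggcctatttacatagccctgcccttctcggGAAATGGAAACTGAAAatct
Icam1: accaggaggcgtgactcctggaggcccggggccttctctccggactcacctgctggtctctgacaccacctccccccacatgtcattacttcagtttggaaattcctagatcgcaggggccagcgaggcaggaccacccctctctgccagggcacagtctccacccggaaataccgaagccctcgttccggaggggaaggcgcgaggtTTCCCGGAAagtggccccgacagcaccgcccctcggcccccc
These windows lie at chr5:92348890-92349139 (minus strand), chr11:58214727-58214976 (plus strand), chr5:120907526-120907775 (minus strand) and chr9:21015690-21015939 (plus strand), in the order of the lines. The Cxcl10 window held 1 response element, at -213 to -204 from the start, and no gamma-activated site. Irgm2 held 1 of each, the gamma-activated site at -75 to -67 and the response element at -64 to -55. Oas1a held a gamma-activated site at -98 to -90 and 2 response elements that overlap each other, at -20 to -11 and -14 to -5. Icam1 held a gamma-activated site at -42 to -34 and no response element. Over the same window, 8.13% of 27025 genes held a gamma-activated site and 3.46% a response element. Among the interferon-gamma GTPase genes described here, 11 were in the promoter table, of which 7 held a gamma-activated site and 10 a response element. Of 28 genes of the type I response in the table, 5 held a gamma-activated site and 11 a response element. Of 20 genes of MHC class I and the immunoproteasome, 2 held a gamma-activated site and 3 a response element, and of 9 interferon-induced ligand and checkpoint genes, 2 held each. A match is a description of the letters and does not show that a factor bound there.

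The split of homeostatic HEC was made on Cxcl9 itself, whose levels in these cells are therefore described only here. Cxcl9 was listed at 0 in 36 cells and lay above 0 but below 1 in 19 cells. The cells just inside the limit had 1.24, 1.57 and 1.86 FPKM, and those just outside it had 0.96, 0.73 and 0.72 FPKM. Within the set with Cxcl9 the levels fell into a low and a high range, with 11 cells between 1.24 and 7.9 FPKM and 13 cells at 35 FPKM or more. The median of those 13 cells was 496 FPKM, and the highest cells, numbers 28 and 48, had 5142 and 4588 FPKM. Both ranges were also set against the 55 cells without Cxcl9, a division chosen after the values had been seen.

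Depth was close in the 2 whole sets. The median number of genes at an FPKM of 1 or more was 3835 (range 2740 to 5491) in cells with Cxcl9 and 3842 (range 2112 to 5655) in cells without it. Approximated fragments per cell had medians of 1645220 with Cxcl9 and 1887990 without it. Glycam1 and Ccl21a, the most abundant HEC transcripts, made up 14.99% of all FPKM in the median cell with Cxcl9 and 21.7% without it. Cdh5, the gene of VE-cadherin and 1 of 12 blood endothelial markers, was detected in all 24 cells with Cxcl9 and all 55 cells without it. Summed over the 12 markers, the lowest, median and highest levels were 1857, 3503 and 6483 FPKM with Cxcl9. Without it they were 229, 3524 and 7420 FPKM. Glycam1, the L-selectin ligand that marks high endothelium, was likewise detected in all cells of both sets, at a mean log2(FPKM + 1) of 15.04 ± 2.11 with Cxcl9 and 15.17 ± 2.54 without it (SD, n = 24 and 55).

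Across the whole transcriptome, 9317 genes other than Cxcl9 were detected in over 10% of the cells of either set. On log2(FPKM + 1), the scale of every mean and difference below, 346 of them were higher by 1 or more in cells with Cxcl9 (3.71%) and 169 were lower by 1 or more (1.81%). The median difference over all genes was 0.06, with 55.7% of genes above 0, and 5% of genes lay below -0.74 and 5% above 0.90. When the ratio of arithmetic mean FPKM was used in place of the mean of logs, 1305 genes were higher and 1618 lower by the same factor, so the excess of higher over lower genes depended on the average. With 24 cells of each set matched on detected genes, 443 genes were higher and 414 lower.

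Interferon ligands were not found in either set. All 8 genes listed, among them Ifng, Ifnb1, Ifna2, Ifna4 and Ifnl2, were at 0 in all 24 cells with Cxcl9 and all 55 cells without it.

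Among the interferon-induced ligands, Cxcl10 had the largest difference. Its lowest, median and highest levels were 0, 0.79 and 7999.9 FPKM in cells with Cxcl9, and 0, 0 and 1119 FPKM in cells without it. Cxcl10 was detected in 10 of 24 cells with Cxcl9 (41.7%, exact 95% interval 22.1 to 63.4) and in 13 of 55 cells without it (23.6%, 13.2 to 37.02). The intervals overlap. A level of 100 FPKM was reached in 7 of 24 cells with Cxcl9 (29.2%, 12.6 to 51.1) and 7 of 55 without it (12.7%, 5.27 to 24.5). Mean levels were 3.50 ± 4.44 with Cxcl9 and 1.52 ± 2.95 without it (SD, n = 24 and 55), a difference of 1.98 that is smaller than either SD. Cxcl10 lies at chr5:92346638-92348889 (GRCm38, minus strand), on the same chromosome as Gbp4 (chr5:105115767-105139586) and Oas1a (chr5:120896256-120907521).

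Cxcl11, the rarest of the CXCR3 ligands here, was detected in 4 of 24 cells with Cxcl9 and 1 of 55 cells without it, and its highest levels were 225 FPKM with Cxcl9 and 1.01 FPKM without it. Il15, a cytokine that sustains natural killer and memory T cells, averaged 5.04 ± 3.52 with Cxcl9 and 3.60 ± 3.15 without it, although it was detected in 70.8% of cells with Cxcl9 and 70.9% without it. The difference of 1.43 lay in its level: 11 of 24 cells with Cxcl9 and 12 of 55 without it reached 100 FPKM. Icam1, the adhesion molecule that binds the integrin LFA-1 on arresting lymphocytes, had lowest, median and highest levels of 0.54, 181 and 1074 FPKM with Cxcl9 and 0, 60.8 and 743 FPKM without it. Its means were 6.51 ± 2.87 with Cxcl9 and 5.36 ± 2.85 without it, a difference of 1.15, and the ranges of both sets overlapped almost wholly. Of the 12 interferon-induced ligands and checkpoint genes that were detected often enough, 3 were higher by 1 or more with Cxcl9 (Cxcl10, Il15 and Icam1), none was lower, and the median difference was 0.67. Among all genes, 3.71% were higher by 1 or more and 1.81% lower. Cd274, which encodes the checkpoint ligand PD-L1, differed by 0.20, and Ubd, an interferon-inducible ubiquitin-like modifier among the most abundant of these transcripts, differed by 0.35.

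The receptors, kinases and transcription factors of the interferon pathway showed no difference of 1 or more. Of 19 genes, 12 were above 0, where 55.7% of all genes were, and the median difference was 0.22. The receptor chains Ifngr1 and Ifngr2 were each detected in 23 of 24 cells with Cxcl9, and in 54 and 48 of 55 cells without it, with differences of 0.55 and 0.74. Irf1, a transcription factor induced early by interferon-gamma, differed by 0.53, and Irf9, the DNA-binding part of the type I complex, by 0.39. Pias1, an inhibitor of STAT signalling, had the lowest difference of this list, -0.97.

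**Figure D1:**
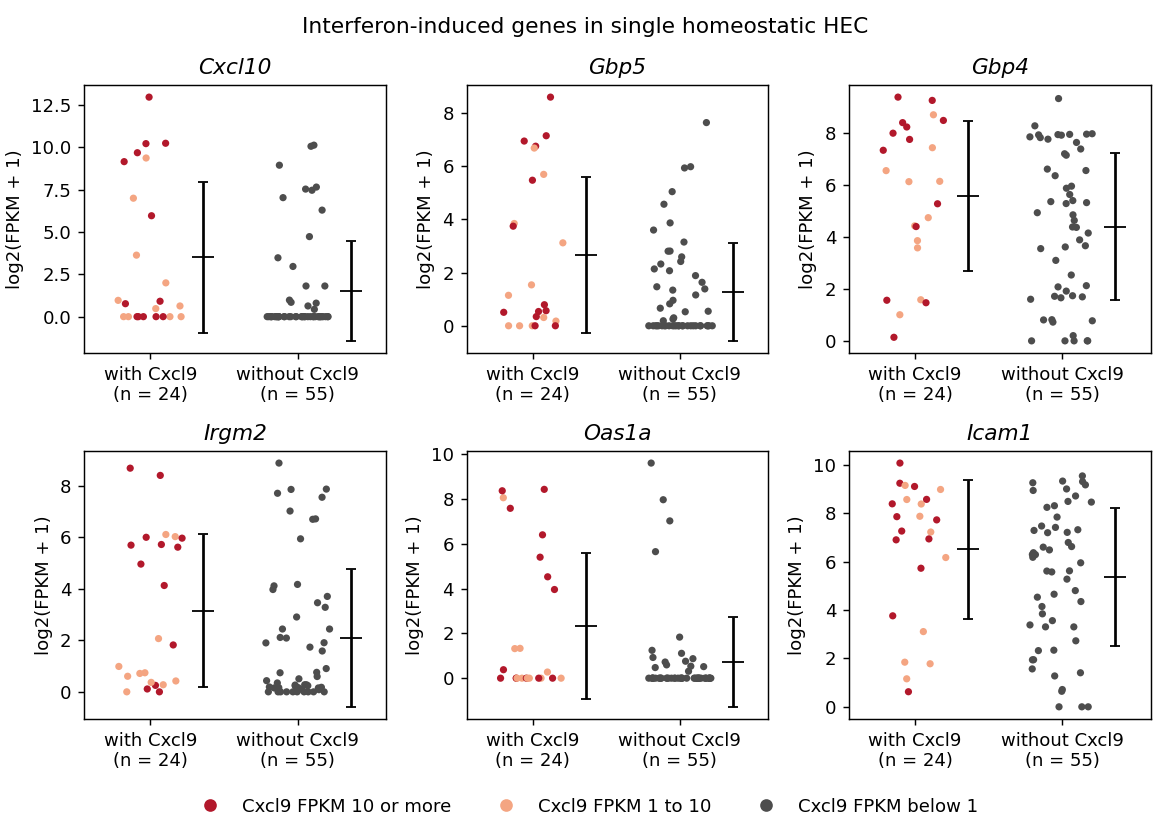
Levels of 6 interferon-induced genes, as log2(FPKM + 1), in single homeostatic HEC with Cxcl9 (left, 24 cells) and without it (right, 55 cells); each point is 1 cell, coloured by its Cxcl9 FPKM, and horizontal bars with whiskers are the mean and SD over cells. High values of each gene occur in both sets, and the mean differences run from 1.06 for Irgm2 to 1.98 for Cxcl10.

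The interferon-gamma GTPases were higher by 1 or more in 3 of 20 genes, lower in none, and above 0 in 17, with a median difference of 0.48. Over all 9317 genes, 3.71% were higher by 1 or more, 1.81% lower and 55.7% above 0. Gbp5, a guanylate-binding protein that promotes inflammasome assembly, had 0, 0.97 and 383 FPKM (lowest, median and highest) in cells with Cxcl9 and 0, 0.19 and 197 FPKM in cells without it. Gbp5 averaged 2.66 ± 2.94 with Cxcl9 and 1.27 ± 1.84 without it, a difference of 1.39, and 5 of 24 cells with Cxcl9 but 1 of 55 without it reached 100 FPKM. Gbp4 averaged 5.59 ± 2.88 with Cxcl9 and 4.41 ± 2.85 without it and was detected in 23 of 24 cells with Cxcl9 and 45 of 55 without it. Irgm2, an IRG that regulates the others, averaged 3.15 ± 2.96 with Cxcl9 and 2.09 ± 2.67 without it. The share of cells at 100 FPKM or more of Irgm2 went the other way, with 2 of 24 with Cxcl9 and 8 of 55 without it. Without cell 74 the Irgm2 difference was 0.82. Most of the family was already common in cells without Cxcl9. Iigp1 was detected in 24 of 24 cells with Cxcl9 and 53 of 55 without it. Counted over all 21 listed GTPase genes, before the filter, a cell held a median of 13.5 (7 to 21) with Cxcl9 and 12 (4 to 19) without it. Several of these genes have near-identical copies (Tgtp1 and Tgtp2, and the Gbp6 and Gbp10 group), so the division of fragments between copies is uncertain.

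The genes of the type I response were higher by 1 or more in 6 of 38, lower in none, and above 0 in 25, with a median difference of 0.33. For all 9317 genes the shares were 3.71% higher, 1.81% lower and 55.7% above 0. Restricted to genes detected in at least 50% of the cells of either set, the list's median was 0.115, below the 0.136 of all genes so restricted, and with arithmetic means it was 0.102. Oas1a, a sensor of double-stranded RNA, was detected in 10 of 24 cells with Cxcl9 (41.7%, 22.1 to 63.4) and 7 of 55 without it (12.7%, 5.27 to 24.5), and its means were 2.34 ± 3.25 with Cxcl9 and 0.73 ± 2.01 without it. The highest Oas1a level of all, 783 FPKM, was nevertheless in a cell without Cxcl9, against a highest level of 346 FPKM with Cxcl9. Parp14, a mono-ADP-ribosyltransferase, was detected in 23 of 24 cells with Cxcl9 (95.8%, 78.9 to 99.9) and 37 of 55 without it (67.3%, 53.3 to 79.3), and these intervals just overlap. The remaining genes past 1 were Ifi44 at 1.41, Herc6 at 1.31, Isg20 at 1.19 and Zbp1, a sensor of Z-form nucleic acids, which only just reached 1. Zbp1 did not keep its direction when arithmetic means were compared, where its log2 ratio was -0.0499. Some of the best-known members were not higher: Isg15 had a difference of -0.58 and Ifit1 of -0.28.

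In homeostatic HEC, both families differed with how much Cxcl9 a cell held. In the 13 cells at 10 FPKM or more, 15 of 20 GTPase genes were higher by 1 or more than in the 55 cells without Cxcl9, all 20 were above 0, and the median difference was 1.27. In that comparison 7.89% of 9291 genes were higher by 1 or more, 4.26% were lower and 54.8% were above 0. In the 11 cells between 1 and 10 FPKM, none of the 20 was higher by 1 or more than in the same 55 cells, 5 were lower by 1 or more, and the median difference was -0.42, against 8.98% of 9116 genes higher, 4.87% lower and 52.1% above 0. Both comparisons use the same 55 cells without Cxcl9. The number of detected genes moved in the same order, with medians of 3613 in the 11 cells, 4045 in the 13 cells and 3842 in the cells without Cxcl9. Approximated fragments per cell did not, with medians of 1811340 in the 11 cells, 1479110 in the 13 cells and 1887990 without Cxcl9. The part of either measure in these differences was not tested. The type I response gave medians of -0.21 in the 11 cells between 1 and 10 FPKM and 0.63 in the 13 cells at 10 or more, with 1 and 15 of 38 genes higher by 1 or more and 6 and 0 lower by 1 or more.

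Irgm1, which controls IRG activation and autophagy, spread the widest between these ranges. Its lowest, median and highest levels were 0, 0.66 and 121 FPKM in the 11 cells with Cxcl9 between 1 and 10 FPKM, 0.77, 196 and 1004 FPKM in the 13 cells at 10 or more, and 0, 6.83 and 1358 FPKM in the 55 cells without Cxcl9. It was detected in 4 of the 11 cells, 12 of the 13 cells and 39 of the 55 cells without Cxcl9, so its differences from the cells without Cxcl9 were -2.43 in the lower range and 2.78 in the higher range. Iigp1 was detected in every cell of both ranges, with medians of 41.03 FPKM in the lower and 551 FPKM in the higher, against 159 FPKM in cells without Cxcl9. Gbp2 differed from cells without Cxcl9 by -1.10 in the lower range and 1.78 in the higher, Gbp6 by -1.28 and 2.13, and Ifi47 by -1.87 and 1.43. Irgm2 also lay below the cells without Cxcl9 in the lower range, at -0.43, and above them in the higher, at 2.32. Gbp4 and Gbp5 were above 0 in both ranges, at 0.52 and 0.77 in the lower and at 1.73 and 1.91 in the higher.

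**Figure D2:**
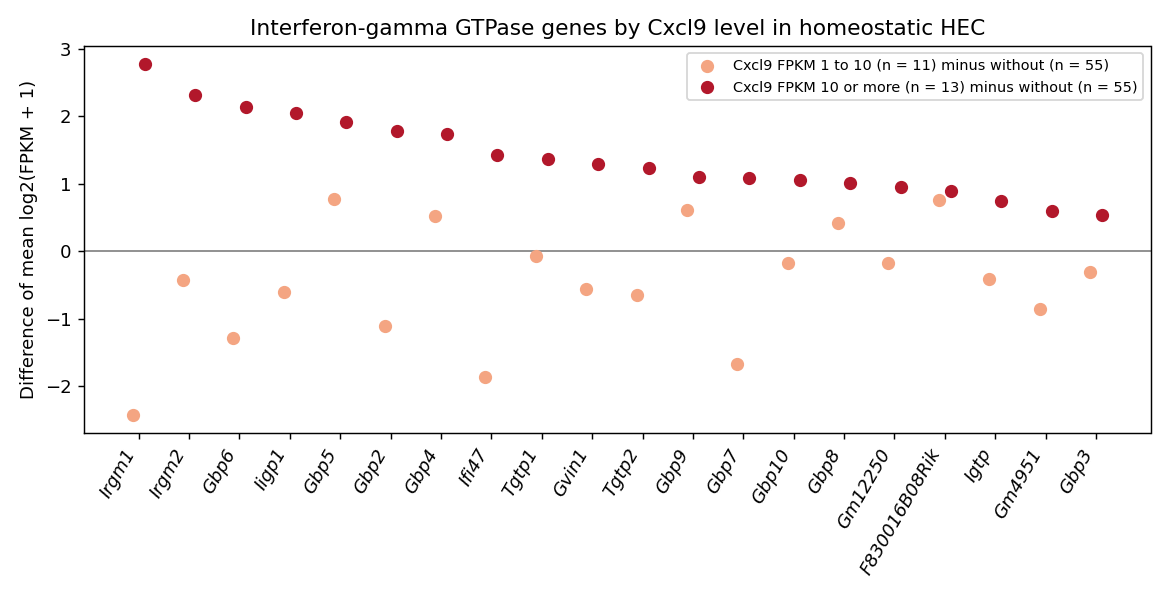
Difference of mean log2(FPKM + 1) from the 55 homeostatic HEC without Cxcl9 for each of 20 interferon-gamma GTPase genes, in the 11 cells with Cxcl9 at 1 to 10 FPKM (light points) and the 13 cells at 10 FPKM or more (dark points); no error is drawn because cells are not replicates. All 20 dark points lie above 0, whereas 5 of the light points do.

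The 2 cells highest in Cxcl9 carried much of the difference of the whole set. Cell 28 had 7999.9 FPKM of Cxcl10, 225 of Cxcl11, 1004 of Irgm1 and 346 of Oas1a, and cell 48 had 1191 of Cxcl10, 256 of Irgm1 and 331 of Oas1a. Without these 2 cells the median difference was 0.16 for the GTPases, with 0 of 20 genes higher by 1 or more where 4.15% of 9227 genes were, and 0.0131 for the type I response, both near the 0.06 of all genes. Cxcl10 then differed by 1.24, Oas1a by 1.05, Icam1 by 1.01, Gbp5 by 0.99, Gbp4 by 0.87 and Irgm2 by 0.78. Leaving out cell 28 alone gave medians of 0.26 for the GTPases and 0.14 for the type I response. Within the range of 10 FPKM or more, the 11 cells left without cells 28 and 48 still had a median GTPase difference of 0.82, with 8 of 20 genes higher by 1 or more where 9.42% of 9147 genes were, and 0.19 for the type I response. Irgm1, Irgm2 and Iigp1 were then higher than in cells without Cxcl9 by 2.39, 1.98 and 1.79.

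Genes of MHC class I and its peptide supply lay slightly but broadly above 0 in cells with Cxcl9. Of 25 genes, 23 were above 0 and 1, Psmb9, was higher by 1 or more, with a median of 0.44. Without cell 78 the Psmb9 difference was 0.87. Of all 9317 genes, 55.7% were above 0 and 3.71% were higher by 1 or more. Psmb9, a catalytic subunit of the immunoproteasome, averaged 5.16 ± 3.68 with Cxcl9 and 4.10 ± 3.74 without it, and Psme2, a subunit of the proteasome activator, averaged 7.03 ± 2.36 with Cxcl9 and 6.08 ± 2.83 without it. B2m, the light chain of class I molecules, was among the most abundant transcripts, at 13.58 ± 0.46 with Cxcl9 and 13.45 ± 0.42 without it. The heavy chains H2-K1 and H2-D1 differed by 0.22 and 0.24. Unlike the GTPases, this list had similar medians in both ranges of Cxcl9, 0.34 in the 11 cells between 1 and 10 FPKM and 0.46 in the 13 cells at 10 or more, each set against the same 55 cells without Cxcl9.

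MHC class II, which presents antigen to CD4 T cells, had a median difference of 0.50 over 9 genes. Of these 6 were above 0, where 55.7% of all genes were. H2-Aa was the one gene higher by 1 or more, with lowest, median and highest levels of 0, 45.8 and 2845 FPKM in cells with Cxcl9 and 0, 3.34 and 2429 FPKM in cells without it. It was detected in 15 of 24 cells with Cxcl9 and 33 of 55 without it. Without cell 74 the H2-Aa difference was 0.91. The invariant chain Cd74 averaged 7.44 ± 3.59 with Cxcl9 and 6.95 ± 3.39 without it. Ciita, the transactivator of these genes, was detected in 0 of 24 cells with Cxcl9 and 1 of 55 without it.

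**Figure D3:**
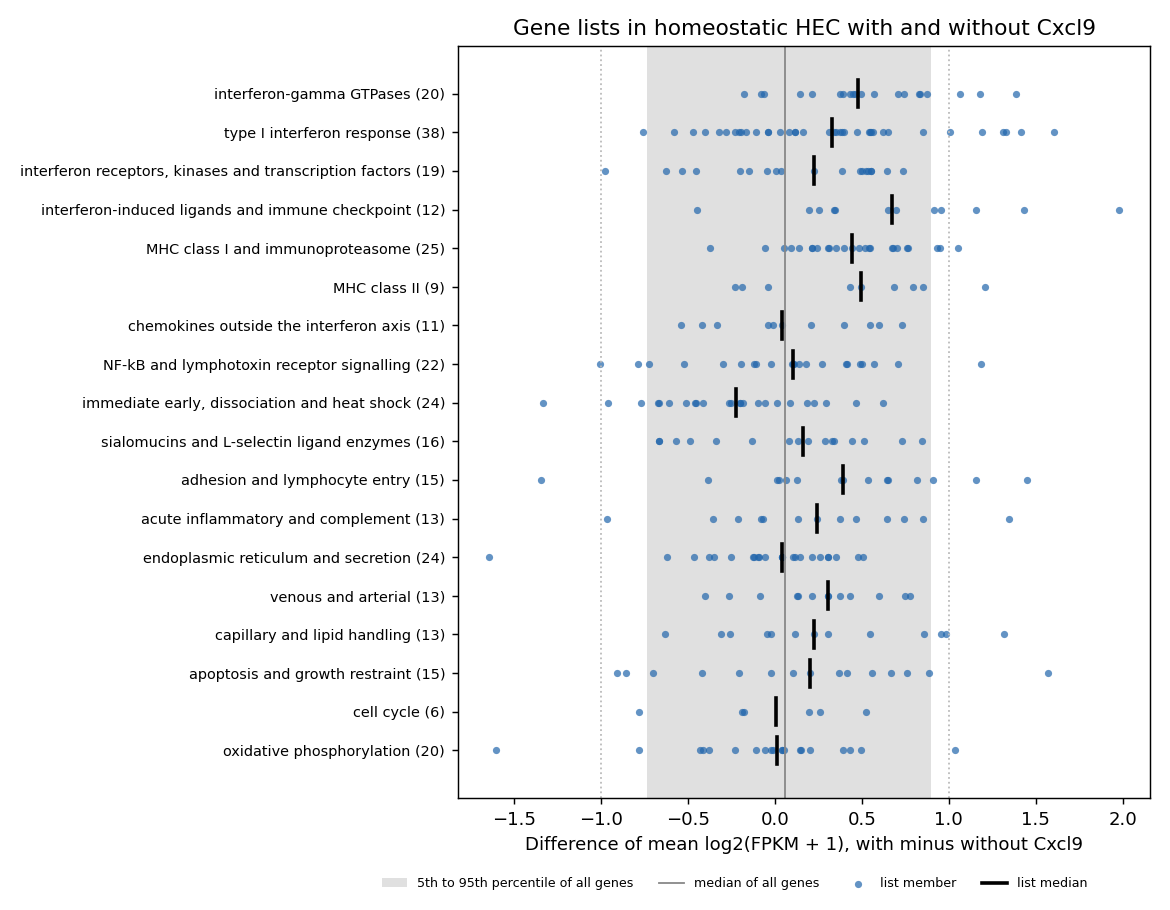
Difference of mean log2(FPKM + 1), 24 homeostatic HEC with Cxcl9 minus 55 without it, for each gene (points) of 18 lists, with the number of genes per list in brackets and the list median as a black bar. The grey band spans -0.74 to 0.90, which holds all but 5% of the 9317 genes on each side; most points lie inside it, and the interferon-induced ligands have the highest median, 0.67.

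Gene groups outside the interferon axis had medians from -0.22 to 0.39, a span that includes those of the type I response and of the interferon receptors, kinases and factors, and no difference between lists was tested. The genes of sialomucins and of the enzymes that build L-selectin ligands, the lymphocyte-capture machinery of HEC, had a median of 0.16 over 16 genes with none past 1 in either direction. The chemokines outside the interferon axis had a median of 0.04, endoplasmic reticulum and secretion genes 0.04, oxidative phosphorylation 0.0143 and cell cycle genes 0.00917. Higher medians were found for venous and arterial genes, at 0.30, acute inflammatory and complement genes, at 0.24, capillary and lipid handling genes, at 0.23, and apoptosis and growth restraint genes, at 0.20. Genes of NF-kB and lymphotoxin receptor signalling had a median of 0.11 over 22 genes, with Nfkbib, an inhibitor of NF-kB, higher by 1.18 and Tnfrsf1a, a TNF receptor, just past 1 in the lower direction. Of 15 adhesion genes, Selp and Icam1 were higher by 1 or more and Cd63 was lower, with a median of 0.39. Selp, which encodes P-selectin, was higher with Cxcl9, at 4.13 ± 3.31 with it and 2.68 ± 2.70 without it, with 8 of 24 cells with Cxcl9 and 5 of 55 without it at 100 FPKM or more. Selp differed by 1.37 in the lower range of Cxcl9 and 1.51 in the higher. Cd63, a tetraspanin of the granules that store P-selectin, had the opposite sign, at 6.42 ± 3.51 with Cxcl9 and 7.76 ± 2.92 without it.

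Single genes of other lists were past 1. C1ra, a protease of the classical complement pathway, was detected in 24 of 24 cells with Cxcl9 and 46 of 55 without it and differed by 1.35. Gsdmd, which encodes the pore-forming protein of pyroptosis, differed by 1.57, but by 3.09 in the cells between 1 and 10 FPKM of Cxcl9 and by 0.28 in those at 10 or more. Ly6c1, a surface protein of capillary endothelium, had the same order, 2.27 in the lower range and 0.51 in the higher. Fos, an immediate early gene that tissue dissociation also induces, averaged 6.82 ± 3.43 with Cxcl9 and 8.15 ± 2.69 without it. The list of immediate early, dissociation and heat shock genes had the lowest median of the lists, -0.22, with 7 of 24 genes above 0, and the part of dissociation in the interferon values was not tested. This list also differed by range, with a median of -0.54 in the lower range and -0.0026 in the higher. In the lower range 7 of its 24 genes were lower by 1 or more, where 4.87% of all genes were.

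Among genes detected in at least 50% of the cells of either set, those with the largest differences were not interferon genes, whereas Cxcl10, detected less often, had a difference that would have placed it among them. The 12 with the largest positive differences ran from Mrps7, a mitochondrial ribosomal protein, at 2.49 to Clpp, a mitochondrial protease, at 1.95. Arpc5, a subunit of the actin-branching ARP2/3 complex, averaged 7.18 ± 2.33 with Cxcl9 and 4.85 ± 2.70 without it, and 19 of 24 cells with Cxcl9 and 18 of 55 without it reached 100 FPKM. Ctsz, a lysosomal cysteine protease, averaged 7.06 ± 2.91 with Cxcl9 and 4.82 ± 3.57 without it. Mif, a cytokine, differed by 2.16, and Psma1, a core proteasome subunit, by 2.07. Spag7, Apoa1bp, Smc1a, Rogdi, Hmg20b and Gnb4 made up the rest, between 2.17 and 1.95.

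The 12 largest negative differences ran from Arhgdib at -2.33 to Gimap1, a GTPase of the immunity-associated family, at -1.58. Arhgdib, which is abundant in leukocytes, had lowest, median and highest levels of 0, 6.19 and 684 FPKM in cells with Cxcl9 and 0, 174 and 1576 FPKM in cells without it. Araf, a kinase of the MAP kinase pathway, was detected in 6 of 24 cells with Cxcl9 and 33 of 55 without it. Rassf1, Mettl23, Zfp330, Mvb12a, Ndufs7, Spcs2, Alg11 and Uqcrq lay between -1.90 and -1.60. All 24 genes were chosen for their difference, and 20 of the 24 differences were smaller than the SD of either set. Under the same limit in other groups, the 12 positive genes were again higher by 1 or more in 2 cases among inflamed cells, 1 among dedifferentiated cells and 3 in BEC. Of the same 12 genes, 2 among inflamed cells, 2 among dedifferentiated cells and 1 in BEC were lower by 1 or more instead. The 12 negative genes were again lower by 1 or more in 4 cases among inflamed cells, 1 among dedifferentiated cells and 2 in BEC, and were higher by 1 or more instead in 0, 2 and 2 cases. The shares of all genes past 1 in these groups, given below, run from 2.28% to 15.8%.

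The same limit of 1 FPKM was then applied in cells that the choice of members had not used. It gave 44 cells with Cxcl9 and 20 without it in the inflamed group, 15 and 29 in the dedifferentiated group, and 7 and 25 in BEC. Cxcl9 levels in the cells with it differed between these groups. Their medians were 62.1 FPKM in inflamed cells, 5.69 FPKM in dedifferentiated cells and 163 FPKM in BEC. At 10 FPKM or more were 27 of 44, 4 of 15 and 5 of 7 cells, in that order. In inflamed HEC the GTPases had a median difference of 0.76, with 7 of 20 genes higher by 1 or more and 16 above 0, where 2.28% of all genes were higher, 6.85% lower and 43.4% above 0. In dedifferentiated HEC the median was 1.45, with 13 of 20 higher and all 20 above 0, where 7.82% of all genes were higher, 6.35% lower and 49.9% above 0. In BEC it was 0.11, with 3 of 20 higher and 3 lower, where 15.8% of all genes were higher and 8.2% lower, and 11 of 20 GTPases and 55.6% of all genes were above 0. The median number of detected genes was 3256 with Cxcl9 and 2727 without it in BEC. It was 3871 and 4059.5 in inflamed cells, and 3142 and 2999 in dedifferentiated cells. The part of detected genes in these values was not tested. Homeostatic HEC had a GTPase median of 0.48 by comparison, and the order of the homeostatic and inflamed groups depended on the limit: with a Cxcl9 limit of 10 FPKM the median was 1.37 in homeostatic HEC and 0.81 in the inflamed group. The dedifferentiated group was not compared at that limit, because only 4 of its cells reached it and 5 were required. At 1 FPKM the type I response had medians of 0.38 in inflamed cells, 0.27 in dedifferentiated cells and -0.05 in BEC. Genes of MHC class I and the immunoproteasome had 0.21, 0.22 and -0.04 in that order. Of their 25 genes 15, 18 and 11 were above 0, where 43.4%, 49.9% and 55.6% of all genes were.

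Single genes differed in where they separated cells with and without Cxcl9. Irgm1 differed by 0.39 at rest, 2.60 in inflamed cells, 0.02 in dedifferentiated cells and 1.96 in BEC. Gbp2 differed by 0.46 at rest, 2.03 in inflamed cells, 2.35 in dedifferentiated cells and -0.82 in BEC. Cxcl10 was higher with Cxcl9 in all 4 groups, by 1.98 at rest, 1.05 in inflamed cells, 2.47 in dedifferentiated cells and 0.74 in BEC.

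**Figure D4:**
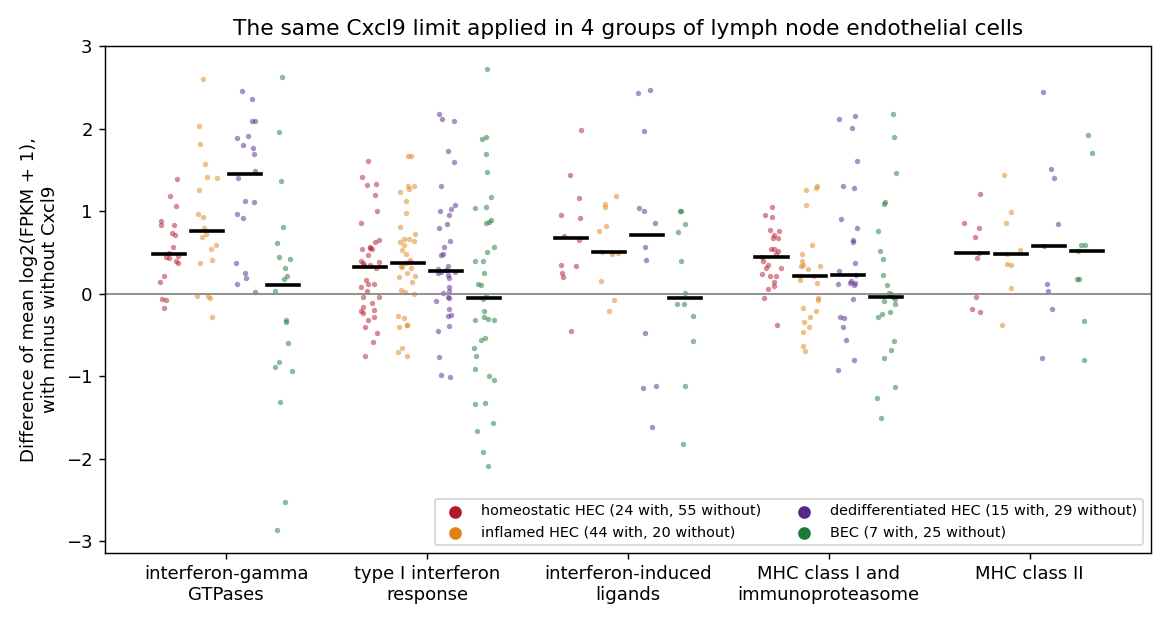
Difference of mean log2(FPKM + 1), cells with minus cells without Cxcl9, for each gene (points) of 5 interferon-related lists in homeostatic, inflamed and dedifferentiated HEC and in BEC, with list medians as black bars and cell numbers in the legend. The GTPase medians are 0.48, 0.76, 1.45 and 0.11 in that order, and the BEC points, from 7 cells with Cxcl9, spread the most.

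Transcripts of leukocytes moved with the split of homeostatic HEC, toward the cells without Cxcl9. At least 3 of 8 general leukocyte markers reached 10 FPKM in 2 of 24 cells with Cxcl9 (8.33%, 1.03 to 26.997) and 17 of 55 without it (30.9%, 19.1 to 44.8). Their summed level ran from 2.52 through a median of 157 to 1159 FPKM with Cxcl9, and from 1.3 through 308 to 4986 FPKM without it. Arhgdib is one of these markers, and since it, Lcp1 and Coro1a were detected in many HEC, the count partly restates the difference of Arhgdib. Cd53, a leukocyte tetraspanin, was detected in 0 of 24 cells with Cxcl9 and 9 of 55 without it. At least 3 markers of B lymphocytes were present in 0 of 24 cells with Cxcl9 and 6 of 55 without it, and the summed B cell markers reached at most 6.37 FPKM with Cxcl9 and 1613 FPKM without it. The 7 general leukocyte markers detected often enough had a median difference of -0.58. Under the same limit in other groups the sign was opposite, at 0.49 in inflamed cells, 0.33 in dedifferentiated cells and 0.29 in BEC.

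Of the macrophage and dendritic cell markers, Lyz2, C1qa, C1qb, C1qc, Siglec1 and Emr1 were at 0 in all cells of both sets. Clec9a, a receptor of conventional dendritic cells, was higher with Cxcl9: it was detected in 8 of 24 cells with Cxcl9 and 7 of 55 without it, with highest levels of 239 FPKM with it and 9.93 FPKM without it. Xcr1 was detected in 7 of 24 cells with Cxcl9 and 13 of 55 without it, and Zbtb46 in 5 of 24 with it and 10 of 55 without it. The summed level of this list reached 239 FPKM with Cxcl9 and 2452 FPKM without it, and at least 3 of its markers reached 10 FPKM in 0 cells with Cxcl9 and 1 cell without it. When the 19 cells with at least 3 markers of another type were left out, 22 cells with Cxcl9 and 38 without it remained. Cxcl10 then differed by 1.8, Gbp5 by 1.25 and Arhgdib by -2.01. Of the 3 macrophage and dendritic markers detected often enough (Clec9a, Xcr1 and Zbtb46), 0 were then higher by 1 or more, where 1 was over all cells. The MHC class II median was 1.36, with 5 of 9 genes higher by 1 or more and H2-Aa at 2.01, where 5.2% of 9333 genes were higher by 1 or more; over all cells the median was 0.50. B lymphocytes also express class II genes, and their part in these values was not tested.

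**Figure D5:**
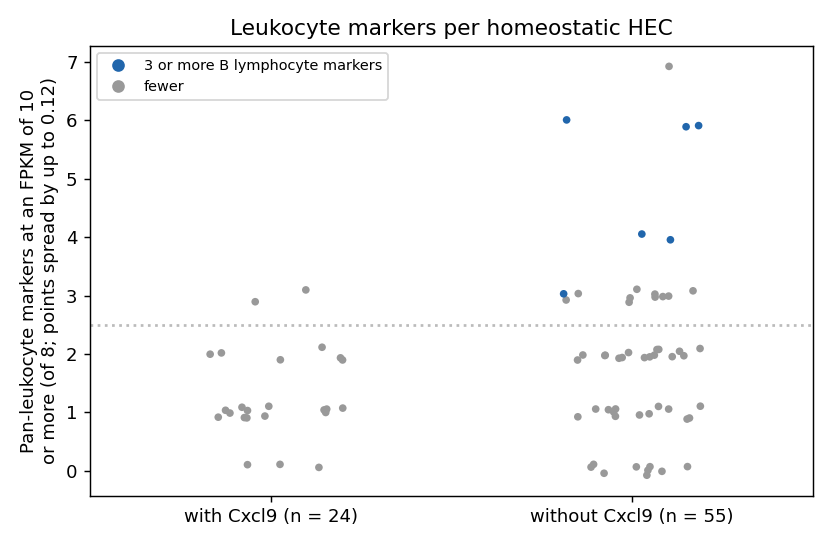
Number of 8 general leukocyte markers at 10 FPKM or more in each homeostatic HEC with Cxcl9 (left, 24 cells) and without it (right, 55 cells); each point is 1 cell, and blue points are cells with at least 3 B lymphocyte markers. Above the dotted line, which separates cells with 3 or more markers, lie 2 cells with Cxcl9 and 17 without it, and all 6 blue points are in the set without it.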

How the data were processed

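Single-cell RNA-seq of 220 endothelial cells from mouse lymph nodes was used as 1 table of FPKM values made and deposited by the authors, for 24049 gene symbols. Per the labels' protocols, sorted cells were processed on the Fluidigm C1 system and libraries made with the Nextera XT kit. The tools named are RSEM 1.2.18 and CASAVA 1.8, with mm10 as the build, per the submitters' processing notes; the sources used here do not give their roles, the annotation, the sort gate or any removal of doublets, and no doublet caller was run.

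Because FPKM values are normalised, no count model was fitted. Means and SDs of log2(FPKM + 1) over cells, their differences, and shares of cells with a gene detected (FPKM of at least 1) with exact Clopper-Pearson 95% intervals were computed per gene with Python 3.11.15, numpy 2.4.6, pandas 2.3.3 and scipy 1.17.1. Differences on this scale understate ratios of low genes. Genes had to be detected in over 10% of the cells of one of the sets. Since no animal is named, each group is 1 sample, and no test was run. Intervals cover counting error over cells only. Amplified fragments without molecular tags are not independent molecules.

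The members and the 19 gene lists and 12 marker lists were chosen with earlier results of these data known, so counts over them are descriptions. Named genes were the 12 largest differences in each direction among genes detected in at least 50% of cells of either set, leaving out genes of ribosomal proteins, haemoglobins and small RNAs and names of predicted genes or clones; list members past 1, or of known standing in the pathway, were added. Of the genes that this rule names, some are not reported here. Inflamed cells 43 and 60 were near-identical and were averaged, so 219 cells were analysed. Fragments per cell were approximated from low FPKM values multiplied by transcript length, in 2179 genes with 1 transcript of at least 1500 bases in GENCODE M21 (GRCm38). The point where these products lay most densely was taken as 1 fragment. GENCODE M21 also gave positions. The difference of means and the approximation of fragments were tested on simulated data, and the other steps were not. The alternatives tried were the pseudocount, the filter, the Cxcl9 limit, scaling, the average, matching on detected genes, leaving out cells with markers of other types and leaving out each cell in turn.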

Additional observations from a re-analysis of the deposited data

How the results depend on the processing

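No paired analysis was possible because no test was run and cell numbers only name cells. With 0.1 in place of 1 added to FPKM, 1091 genes were higher and 571 lower by 1 or more, and with 10 added, 40 and 12; the GTPase medians became 1.04 and 0.42 in inflamed cells, 1.97 and 0.84 in dedifferentiated cells, and -0.28 with 0.1 added in BEC. Without a filter the all-gene median was 0 and that of MHC class II, over all its genes, 0.20; with a filter at 50% of cells, 103 genes were lower, MHC class II had 0.79 and the type I response 0.115, beside 0.136 for all genes. With a Cxcl9 limit of 10, so that cells between 1 and 10 joined those without, 713 genes were higher and 402 lower, the GTPase median was 1.37, type I response 0.77 and MHC class II 0.24, Gsdmd reversed to -0.24, and GTPases had 0.81 in inflamed cells and -0.0276 in BEC. With only cells listed at 0 as those without, MHC class II had 0.99. On matched cells the all-gene median was -0.00519 and 414 genes were lower. Leaving out cells with other markers gave 1.36 for MHC class II, with 485 genes higher and 237 lower. With arithmetic means, 1305 genes were higher and 1618 lower, the all-gene median was -0.0328, the BEC GTPase median -0.54, the type I response 0.102 and Zbp1 reversed to -0.0499. Single genes were followed too, 47 in all: those named by the rule and list members past 1. A gene had moved if its difference fell below 1 in size or shifted by a set amount. With 0.1 added 24 genes moved, with 10 added 41, with arithmetic means 34, on matched cells 13 and with scaling 4.

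The following were chosen after seeing the data. Cells at 10 FPKM or more against those below 1 gave 733 genes higher and 396 lower, 1.27 for GTPases, 0.63 for the type I response and 0.13 for MHC class II. Without cells 28 and 48 these were 862, 438, 0.82, 0.19 and 0.0353, and Gsdmd reversed to -0.0624. Cells between 1 and 10 gave 819 and 444, -0.42, -0.21 and -0.0269, and Irgm2 reversed to -0.43. The whole set without cells 28 and 48 gave 0.16 for GTPases and 0.0131 for the type I response.

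Leaving out each cell in turn gave 320 to 409 genes higher, 155 to 212 lower, and medians of 0.04 to 0.08 for all genes, 0.26 to 0.61 for GTPases, 0.14 to 0.41 for the type I response, 0.35 to 0.54 for MHC class I and 0.28 to 0.79 for MHC class II. Cell 28 gave the lowest GTPase and type I values. For MHC class II the lowest came without cell 6 and the highest without cell 32, both with Cxcl9. Cxcl10 was detected in 39.1% to 43.5% of cells with Cxcl9 and 22.2% to 24.1% without it. Of the 47 single genes followed, 38 kept a difference of 1 or more in size whichever cell was left out. The others were Irgm2, Isg20, Zbp1, Icam1, Psmb9, H2-Aa, Tnfrsf1a, Nfkbib and Uqcrc1. The cause of these shifts was not tested. No cell had below 2000 detected genes.

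With 24 and 55 cells, unknown animals and sparse detection, a share such as 10 of 24 has a wide interval. A Cxcl9 value just above 1 may rest on few fragments, and the number behind each is not given in the table. Cells of 1 animal or chip could share both Cxcl9 and other genes, which cannot be told apart here.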

Other observations

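Among genes detected in at least 50% of cells, those that differed most between the 13 homeostatic HEC at 10 FPKM or more of Cxcl9 and the 55 without it were listed after their values had been seen. Irgm1 led, at 6.86 in the 13 cells and 4.08 in cells without Cxcl9, and Oas1a followed Ctsz, at 3.47 in the 13 cells and 0.73 in cells without it. Tslp, the gene of an epithelial and stromal cytokine, averaged 4.59 in the 13 cells and 2.12 in cells without Cxcl9, a difference of 2.47, whereas the cells between 1 and 10 FPKM differed from the same cells without Cxcl9 by -1.27. Fstl1, a secreted glycoprotein, differed by 2.72 in the 13 cells and by 0.63 in the cells between 1 and 10 FPKM. Lower in the 13 cells were Lpar6, a receptor of lysophosphatidic acid, the lipid that HEC make for lymphocyte passage, at 1.34 in the 13 cells and 3.79 in cells without Cxcl9, and Hspe1, a mitochondrial co-chaperonin, at 2.91 in the 13 cells and 5.20 in cells without it.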
